A study of Homo sapiens with 4 samples.

Results

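The transcripts of 10 hypoxia effector genes were followed in the established liver cancer line HLE, derived from a human hepatocellular carcinoma, with and without stable expression of CYR61. The genes are the carbonic anhydrases CA9 and CA12, the NDRG family members NDRG1 and NDRG3, the mitophagy receptors BNIP3 and BNIP3L, the collagen prolyl 4-hydroxylase subunits P4HA1 and P4HA2, and the histone demethylases KDM3A and KDM4B. They were taken by symbol from the 20286 Ensembl genes of the deposited tables, all 10 were found, and all 10 passed the filter on low counts that left 12698 genes to test. They were picked with their CPM (read counts scaled to library size) in these same libraries known, so the values below describe them and carry no test of their own.

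Total RNA was sequenced from 2 cultures of HLE cells stably carrying an empty vector (Vector) and 2 cultures of HLE cells with stable expression of CYR61. CYR61, now named CCN1, is a CCN family protein that cells secrete into the matrix. Per the series description, the replicates are independent cultures of the whole population of each stable line. The spread between them is therefore that between cultures, and it does not cover a remade line. All cells were kept in medium with 10% fetal bovine serum at 37 °C and 5% CO2, and the labels name no low-oxygen treatment and no oxygen level. The libraries held between 16186988 (CYR61 2) and 21588822 (Vector 2) estimated counts. CYR61 itself was at 221 and 218 CPM in Vector cells and 8090 and 8620 CPM in CYR61 cells. Of the hepatocyte markers, ALB, APOB and TTR were at 0 counts in the 4 libraries, while CPS1 was at 630 to 689 CPM. The epithelial keratin genes KRT8 and KRT18 were abundant in every library, at 1050 CPM or more. Other epithelial genes were low, with KRT19 at or below 0.0906 CPM, EPCAM at 0.319 to 1.36 CPM and CDH1 at 1.04 to 2.61 CPM. The mesenchymal genes VIM, at 1500 to 1960 CPM, and CDH2, at 49.7 to 59.7 CPM, were present in every library. Summed markers of leukocytes stayed at or below 3.56 CPM and those of endothelial cells at or below 2.63 CPM. The summed fibroblast markers were at 38.7 to 47.4 CPM in Vector and 39 to 39.1 CPM in CYR61 cells. COL1A1, at 22.9 to 31 CPM, and PDGFRB, at 11 to 14.8 CPM, made up most of them. Neither was called by edgeR (adjusted p below 0.05). DCN, encoding decorin, was called higher in CYR61 cells but was low. It was at 0.637 and 0.544 CPM in the Vector libraries and 3.68 and 2.26 CPM in the CYR61 libraries. PDGFRA was at 0 throughout. In RNA from whole cultures, fewer cells expressing a gene and less RNA per cell cannot be told apart.

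When oxygen is low, the prolyl hydroxylases that mark HIF alpha subunits for destruction slow down, and HIF accumulates, pairs with ARNT and binds a short core sequence in DNA. The genes described here act downstream, in acid handling at the cell surface, in removal of mitochondria, in collagen maturation and in histone demethylation. Several also answer to other inputs, and NDRG1 in particular is known as a gene of stress and differentiation.

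Promoter sequences from RefSeq (GRCh38.p14), 250 bases before to 50 after a RefSeq start, were matched for 7 of the 10 genes. For each gene a single window was used, the first listed, and any other start was not searched. NDRG1, NDRG3 and BNIP3L had no entry. The windows were searched on both strands for ACGTG, the commoner core of the hypoxia response element, and for GCGTG, its variant. ACGTG was present in 21.4% and GCGTG in 36.5% of all 35116 windows of this length. CA9, BNIP3, P4HA1 and KDM4B held ACGTG. CA12 and KDM3A held only GCGTG, and P4HA2 held neither. The 250 bases before the start are shown for CA9 (chr9:35673678-35673927, plus strand) and BNIP3 (chr10:131981924-131982173, minus strand), which carry the comparison below, with ACGTG on either strand in capitals.
CA9: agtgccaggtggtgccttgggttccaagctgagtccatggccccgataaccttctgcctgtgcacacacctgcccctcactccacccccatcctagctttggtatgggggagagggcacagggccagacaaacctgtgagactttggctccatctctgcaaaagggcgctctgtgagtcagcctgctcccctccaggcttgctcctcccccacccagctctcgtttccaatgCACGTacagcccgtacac
BNIP3: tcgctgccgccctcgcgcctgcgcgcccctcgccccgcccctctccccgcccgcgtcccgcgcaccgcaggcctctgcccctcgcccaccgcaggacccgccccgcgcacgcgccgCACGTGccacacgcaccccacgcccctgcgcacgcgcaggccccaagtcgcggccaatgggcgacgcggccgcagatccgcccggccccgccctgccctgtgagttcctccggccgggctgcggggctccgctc

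In CA9 the core lay on the reverse strand, from position -18 to -14 counted from the RefSeq start. By the GENCODE 29 start of CA9, 35673856, which is used for the locus below, the core (35673910 to 35673914) lies inside the gene. In BNIP3 it lay from position -134 to -129 as CACGTG, which reads ACGTG on both strands and is also the E-box that other factors bind. CACGTG was present in 7.26% of all windows. For comparison, the surroundings of the core are shown in P4HA1 (chr10:73096936-73096964, minus strand) and KDM4B (chr19:4968863-4968889, plus strand), whose transcripts differed less between the groups. The KDM4B core is again part of CACGTG, and its window is cut short by the edge of the searched sequence. Like that of CA9, the P4HA1 core (73096948 to 73096952) lies inside its gene by GENCODE 29, where the minus-strand gene reaches 73096974.
P4HA1: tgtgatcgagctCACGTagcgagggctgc
KDM4B: gtcagcgggcACGTGggtgggcgccgg

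A match is a stretch of letters, and no binding was measured. Groups without overlap were frequent: of all 12698 genes tested, 27.7% had both CYR61 libraries below both Vector libraries and 23.9% had both above. Among the genes with ACGTG, the groups overlapped in P4HA1 and not in CA9, BNIP3 and KDM4B, as the values below show. The size of the difference varied, with log2 fold changes of -2.44 for CA9 and -0.24 for KDM4B. With the GC trend of each library removed, the groups of P4HA1 no longer overlapped. Among the genes without ACGTG in the searched window, the groups overlapped in KDM3A and not in CA12 and P4HA2. A link between the core and the group difference was not tested.

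CA9, NDRG1, BNIP3L and BNIP3 were lower in CYR61 cells by factors of 5.45, 3.78, 1.97 and 1.78. These 4 were the members called by edgeR across all genes (adjusted p below 0.05), and no member was called higher. Of all 12698 genes tested, 4.56% were called lower, 1.83% higher and 6.39% in either direction. In 8 of the 10 members both CYR61 libraries lay below both Vector libraries, as did 27.7% of all genes tested. The members were picked from this same contrast, so their counts are set beside those shares and nothing is read from the difference. The median log2 fold change of the 10 members was -0.47, against -0.006 over all genes tested.

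**Figure D1:**
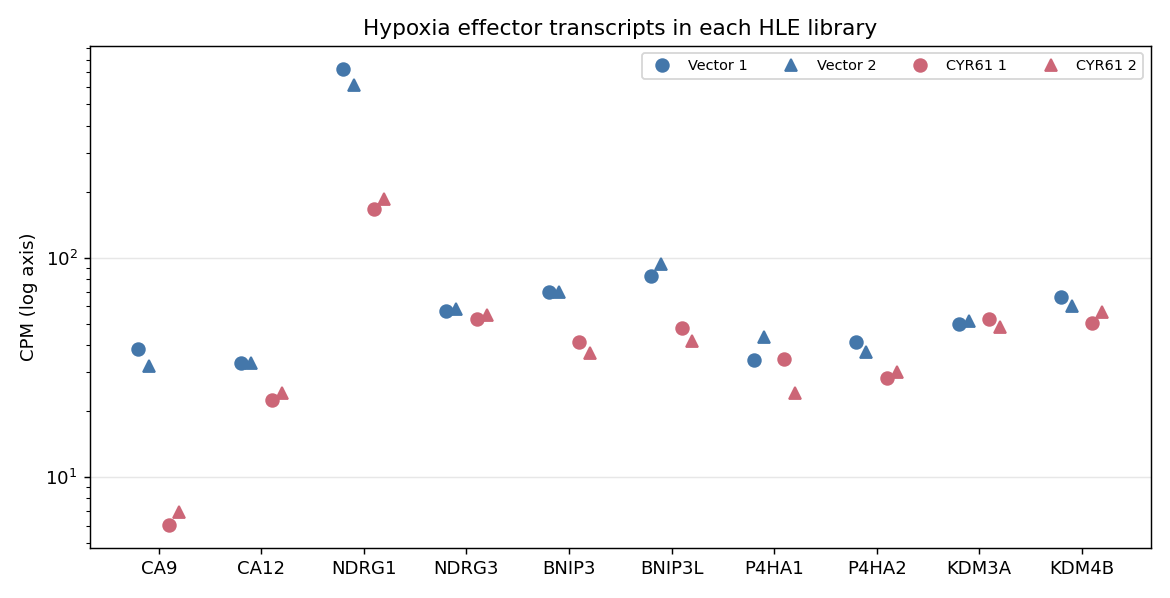
CPM on a log axis (TMM-scaled) of the 10 genes in each library, with Vector in blue, CYR61 in red, circles for replicate 1 and triangles for replicate 2. CA9 and NDRG1 show the widest gaps between the groups, and the libraries of P4HA1 and KDM3A overlap.

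CA9 is a cell-surface carbonic anhydrase that hydrates carbon dioxide outside the cell and is used as a marker of hypoxic tumour regions. It was at 38.3 and 32 CPM in the Vector libraries and at 6.05 and 6.89 CPM in the CYR61 libraries. Both CYR61 libraries were far below both Vector libraries. The means were 35.2 ± 4.49 and 6.47 ± 0.597 CPM (SD, n = 2 each), and the log2 fold change, CYR61 minus Vector, was -2.44 (SE 0.18). Between single libraries of the groups the log2 ratio ran from -2.66 to -2.21. CA9 ranked 25 of the 12698 genes when ordered from the lowest log2 fold change. The estimated counts behind these values were 722.15, 705.89, 130 and 110.17.

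The CA9 locus (hg38 chromosome 9, 35673856 to 35681159, plus strand, ENSG00000107159) shares 643 of its 1670 exonic bases with ARHGEF39, an exchange factor gene on the opposite strand. Whether the libraries kept strand is not given in the sources used, so reads in the shared bases cannot be assigned to either gene with certainty. ARHGEF39 was at 17.5 and 15.2 CPM in the Vector libraries and 19.5 and 23.4 CPM in the CYR61 libraries (log2 fold change 0.39, SE 0.17, not called). The sum of both genes was 55.8 and 47.2 CPM in the Vector libraries and 25.5 and 30.3 CPM in the CYR61 libraries, a log2 ratio of means of -0.88. The sum was lower in both CYR61 libraries, by less than CA9 alone.

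CA12, a second membrane carbonic anhydrase (chromosome 15, 63321378 to 63382161, minus strand), was at 33.2 and 33.1 CPM in the Vector libraries and 22.5 and 24.1 CPM in the CYR61 libraries. The groups did not overlap. The log2 fold change was -0.51 (SE 0.14), and the gene was not called. CA12 was called lower in 4 of 15 alternatives. These were the fit without a low count filter, both fits with the GC trend removed and the block of crossed numbers. All of them called more genes than the 811 of the planned fit. The fit without the filter called 1677 of 16069 genes. Of 12698 genes, 3638 were called with the GC trend removed and 2201 with that and the replicate block. The block of crossed numbers, added after seeing the data, called 5624 of the 12698. In Vector cells CA9 and CA12 had nearly equal CPM, with a CA9 to CA12 ratio of 1.16 and 0.967. In CYR61 cells the ratio was 0.269 and 0.286. Among 13 other carbonic anhydrase genes, 3 were tested (median log2 fold change -0.51). edgeR called 0 of them, as did DESeq2 and limma-voom, and 2 had an unadjusted p below 0.05. With the GC trend of each library removed, 1 was called lower. The most abundant of them, the mitochondrial enzyme gene CA5B, was at 22.9 ± 2.76 and 16.1 ± 1.81 CPM (log2 fold change -0.51, SE 0.17). CA5B was called lower in 4 of 15 alternatives, with edgeR adjusted p-values of 0.0467 without a low count filter, 0.00537 with the GC trend removed, 0.0266 with that and the replicate block, and 5.98e-06 with a block of crossed numbers. The highest adjusted p over the alternatives was 0.495. Of 14 genes of acid and bicarbonate transport, 7 were tested, with a median of -0.06. Again 0 were called by edgeR, DESeq2 or limma-voom, and 0 had an unadjusted p below 0.05. BSG, the chaperone of lactate carriers, was at 1110 ± 74.6 and 994 ± 93 CPM with overlapping libraries.

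NDRG1 encodes an alpha/beta-hydrolase-fold protein without known enzyme activity that rises in low oxygen and nutrient stress. It was the most abundant member, at 727 and 610 CPM in the Vector libraries and 167 and 186 CPM in the CYR61 libraries. The groups were well apart, although the Vector libraries differed more from each other than the CYR61 libraries did. The means were 669 ± 82.7 and 177 ± 13.6 CPM, and the log2 fold change was -1.92 (SE 0.13), which ranked 58 from the lowest of all genes tested. The gene lies on chromosome 8, 133237171 to 133302022, minus strand, and no exon of another gene overlaps it.

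NDRG3, a family member whose protein is stabilised when oxygen is low, was at 57 and 58.1 CPM in the Vector libraries and 52.5 and 54.8 CPM in the CYR61 libraries. The CYR61 libraries were lower by little more than the spread, with a log2 fold change of -0.10 (SE 0.12), and the gene was not called. The ratio of NDRG1 to NDRG3 was 12.8 and 10.5 with the vector, against 3.19 and 3.4 with CYR61. Of the other family members, NDRG4 was at 0.972 ± 0.0986 and 1.23 ± 0.234 CPM and was not called, and NDRG2 was below the filter.

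BNIP3 and BNIP3L (also called NIX) encode proteins of the outer mitochondrial membrane that bind LC3-type proteins and bring mitochondria to autophagosomes. BNIP3 was at 69.4 CPM in both Vector libraries and at 41.1 and 36.8 CPM in the CYR61 libraries. The log2 fold change was -0.83 (SE 0.13), with means of 69.4 ± 0.0204 and 39 ± 3 CPM. BNIP3L was at 82.7 and 94 CPM in the Vector libraries and 47.9 and 41.6 CPM in the CYR61 libraries. Its log2 fold change was -0.98 (SE 0.13), with means of 88.4 ± 7.98 and 44.8 ± 4.47 CPM. For both genes the groups were apart by more than either group's own range.

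The pair kept nearly the same proportion, with a BNIP3 to BNIP3L ratio of 0.839 and 0.738 with the vector, against 0.857 and 0.886 with CYR61. The 2 log2 fold changes differed by 0.15. BNIP3L (chromosome 8, 26382898 to 26505636, plus strand) shares 330 of its 4307 exonic bases with PNMA2 on the opposite strand. PNMA2 was at 10.6 ± 0.571 and 6.76 ± 0.279 CPM, and the sum of both genes had a log2 ratio of means of -0.94, close to that of BNIP3L alone. A further 56 exonic bases of BNIP3L are shared with the pseudogene SDAD1P1, also on the opposite strand, for which no counts were given. BNIP3 (chromosome 10, 131966455 to 131982013, minus strand) has no exon overlap with another annotated gene.

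In the counts of the related gene lists, a gene that fell or rose is one called by edgeR, to be read beside the 4.56% of all genes called lower and the 1.83% called higher. Among 24 other mitophagy genes, 23 were tested, 2 fell and 0 rose, and 8 lay above 0, with a median log2 fold change of -0.20. ULK1, the kinase that starts autophagy, fell from 265 ± 22 CPM in Vector cells to 116 ± 22.8 CPM (log2 fold change -1.19 with an SE of 0.15). GABARAPL1, one of the LC3-type proteins, fell from 141 ± 5.91 CPM in Vector cells to 90.9 ± 3.02 CPM (log2 fold change -0.64 with an SE of 0.11). The GABARAPL1 call was lost without Vector 1 and with the replicate block.

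**Figure D2:**
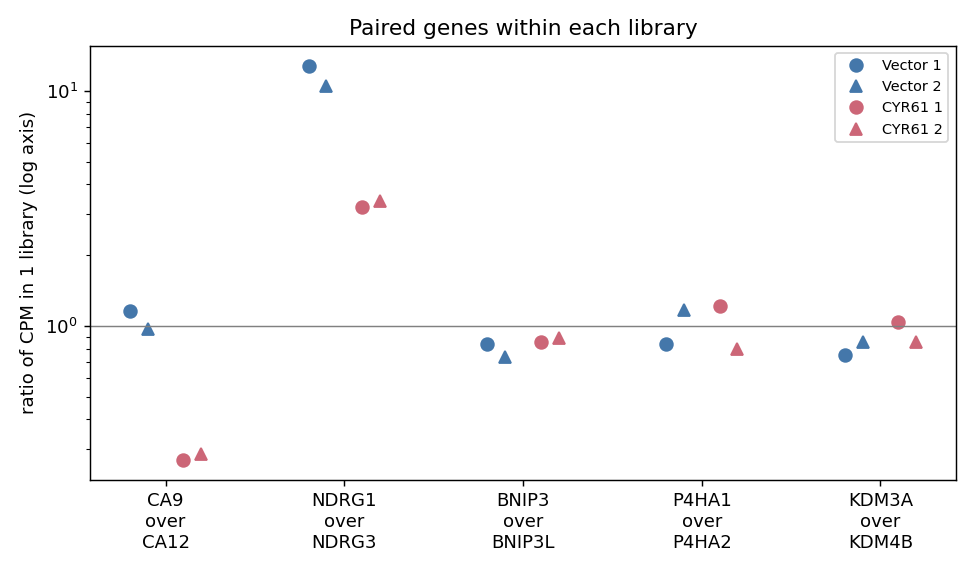
Ratio of the CPM of 2 paired genes within each library, on a log axis, with 1 marked by a line, Vector in blue and CYR61 in red. The CA9 to CA12 and NDRG1 to NDRG3 ratios are lower in both CYR61 libraries, while the Vector and CYR61 values of P4HA1 to P4HA2 overlap.

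P4HA1 and P4HA2 encode alternative catalytic subunits of the enzyme that hydroxylates proline in collagen chains, a step needed for a stable triple helix. P4HA1 was at 34.3 and 43.6 CPM in the Vector libraries and 34.5 and 24.1 CPM in the CYR61 libraries. CYR61 1 lay above Vector 1, so the groups overlapped. The log2 fold change was -0.41 (SE 0.19) and the gene was not called. Leaving out Vector 1 gave -0.57 and Vector 2 -0.22, while leaving out CYR61 1 gave -0.68 and CYR61 2 -0.17. P4HA1 was called lower in 4 of 15 alternatives. These were the fit without CYR61 1, both fits with the GC trend removed and the block of crossed numbers.

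P4HA2 was at 41.1 and 37.3 CPM in the Vector libraries and 28.3 and 30.1 CPM in the CYR61 libraries. Its groups did not overlap, and its log2 fold change was -0.43 (SE 0.14), about the same as that of P4HA1 with a smaller spread. It was not called. In 3 of 15 alternatives it was called lower, both fits with the GC trend removed and the block of crossed numbers. P4HA2 shares 548 exonic bases with the antisense gene P4HA2-AS1, and P4HA1 shares 47 with an antisense gene that has no symbol. Neither antisense gene has a row in the tables used here.

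Of 15 other genes of collagen hydroxylation and folding, 14 were tested, 1 fell and 0 rose, with a median of -0.03. The estimates of 7 lay below 0 and of 7 above, and 1 call among 14 genes is close to the 6.39% of all genes called in either direction. The one that fell was P4HA3, the third catalytic subunit, from 11.1 ± 1.8 to 6.37 ± 0.651 CPM (log2 fold change -0.81, SE 0.20). Its call was lost without Vector 1, without CYR61 1, with DESeq2, with limma-voom, with library size alone and with the replicate block. Of 19 collagen chain genes, the substrates of these enzymes, 14 were tested, 6 fell and 1 rose, with a median of -0.33. COL7A1, the anchoring fibril collagen, fell from 569 ± 22.9 CPM in Vector cells to 320 ± 39.4 CPM (log2 fold change -0.83 with an SE of 0.12), and the basement membrane chain COL4A5 from 70.6 ± 1.71 to 41.8 ± 0.00973 CPM (-0.76, SE 0.12). COL18A1 fell by 0.63 on the log2 scale and COL6A2 rose by 0.90. The number of lower collagen chains was 2 when Vector 1 was left out, 4 without either Vector 2 or CYR61 1, and 5 without CYR61 2. COL18A1 was not called without Vector 1 or with the replicate block, nor was COL6A2 without Vector 2.

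KDM3A and KDM4B are oxygen-dependent enzymes that remove methyl groups from lysine 9 of histone H3, and both genes are induced by HIF in many cells. KDM3A was at 49.7 and 51.4 CPM in the Vector libraries and 52.5 and 48.2 CPM in the CYR61 libraries. The groups overlapped completely, with a log2 fold change of -0.01 (SE 0.13). KDM4B was at 66.4 and 60 CPM in the Vector libraries and 50.4 and 56.6 CPM in the CYR61 libraries. Its groups lay just apart, and the log2 fold change of -0.24 (SE 0.13) was not called. Of 20 other JmjC demethylase genes, all tested, 2 fell and 0 rose, with a median of -0.08. The estimates of 11 lay below 0 and of 9 above, beside 6.39% of all genes called in either direction. KDM7A fell from 11.4 ± 1.28 CPM in Vector cells to 5.11 ± 1.46 CPM (log2 fold change -1.15 with an SE of 0.23). KDM6B, which acts on lysine 27 of histone H3, fell from 53.9 ± 0.157 CPM in Vector cells to 37.6 ± 2.54 CPM (log2 fold change -0.52 with an SE of 0.13). The KDM6B call was lost without Vector 1, Vector 2 or CYR61 1, with RLE size factors and with the replicate block.

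**Figure D3:**
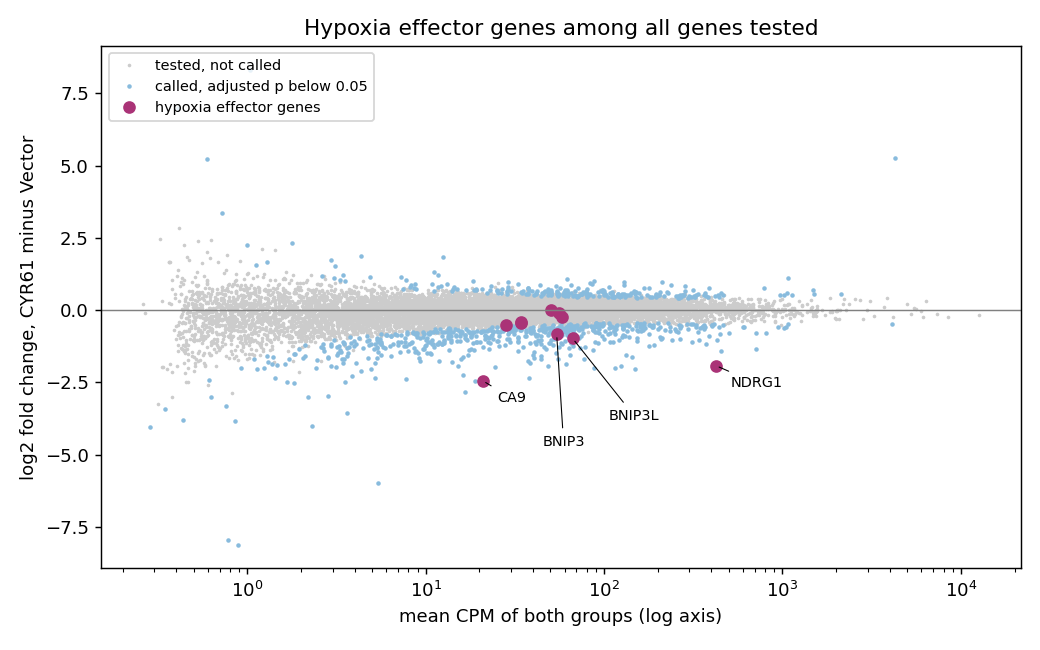
Log2 fold change, CYR61 minus Vector, against mean CPM on a log axis for the 12698 genes tested, with called genes in blue and the 10 hypoxia effector genes in purple. CA9 (-2.44), NDRG1 (-1.92), BNIP3L (-0.98) and BNIP3 (-0.83) are named, and the other 6 lie between -0.51 and -0.01.

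Levels of different genes were compared per length, as CPM per kilobase of the union of annotated exons (RPKM). In Vector cells NDRG1 was highest at 68.1 ± 8.42 RPKM. CA9 followed at 21.1 ± 2.69 and BNIP3L at 20.5 ± 1.85 RPKM, and these neighbours overlapped between libraries. NDRG3 was at 17.7 ± 0.241 RPKM. BNIP3 (13 ± 0.00384) and P4HA1 (12.6 ± 2.12 RPKM) overlapped. The lowest were P4HA2 (4.61 ± 0.317) and CA12 (4.53 ± 0.0106), which overlapped, then KDM4B (4.3 ± 0.307) and KDM3A (3.77 ± 0.0882 RPKM). In CYR61 cells NDRG1 was still first, at 18 ± 1.39 RPKM, with NDRG3 just below it at 16.5 ± 0.511. CA9 was sixth in order at 3.87 ± 0.357 RPKM, overlapping with KDM3A at 3.75 ± 0.226. BNIP3L (10.4 ± 1.04) and P4HA1 (9.47 ± 2.39 RPKM) overlapped. These levels and their order depend on the gene length used. With the longest transcript in place of the union of exons, NDRG1 was at 168, BNIP3L at 24.5, BNIP3 at 22.6 and CA9 at 21.7 RPKM in Vector cells. In CYR61 cells NDRG1 was then at 44.4 RPKM, well above NDRG3 at 18, and CA9, at 4 RPKM, was ninth in order.

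Within the groups, replicates differed with the GC content of transcripts, and several members followed that trend. Across 10364 genes, Spearman's rho with GC was -0.73 for the difference Vector 2 minus Vector 1. It was 0.78 for the difference CYR61 2 minus CYR61 1, as a description over genes that share these libraries. P4HA1 (40.9% GC) was higher in Vector 2 than in Vector 1, by 0.35 on the log2 scale, and differed by -0.52 for CYR61 2 minus CYR61 1. BNIP3L (38.9% GC) differed in the same directions, by 0.18 and -0.20. CA9 (60.1% GC) and KDM4B (61.2% GC) went the other way in both groups, at -0.26 and 0.19 for CA9 and -0.15 and 0.17 for KDM4B. Members of middling GC content varied: NDRG1 (52.1% GC) differed by -0.25 and 0.16, about as much as CA9, while BNIP3 (51.4% GC) differed by -0.00 and -0.16. NDRG3 (46.4% GC) differed by 0.03 and 0.06. With the GC trend of each library removed, P4HA1 was at 36.9 and 40.9 CPM in the Vector libraries and 31.6 and 26 CPM in the CYR61 libraries, and its groups no longer overlapped. The log2 fold change was then -0.43 (SE 0.11) for P4HA1, -0.46 (SE 0.09) for CA12, -0.39 (SE 0.09) for P4HA2 and -0.09 (SE 0.07) for KDM4B. Called members numbered 7 in that fit, CA12, P4HA1 and P4HA2 being added, and 28.7% of all genes tested were called, 1463 lower and 2175 higher. Without the removal, 579 genes were lower and 232 higher.

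**Figure D4:**
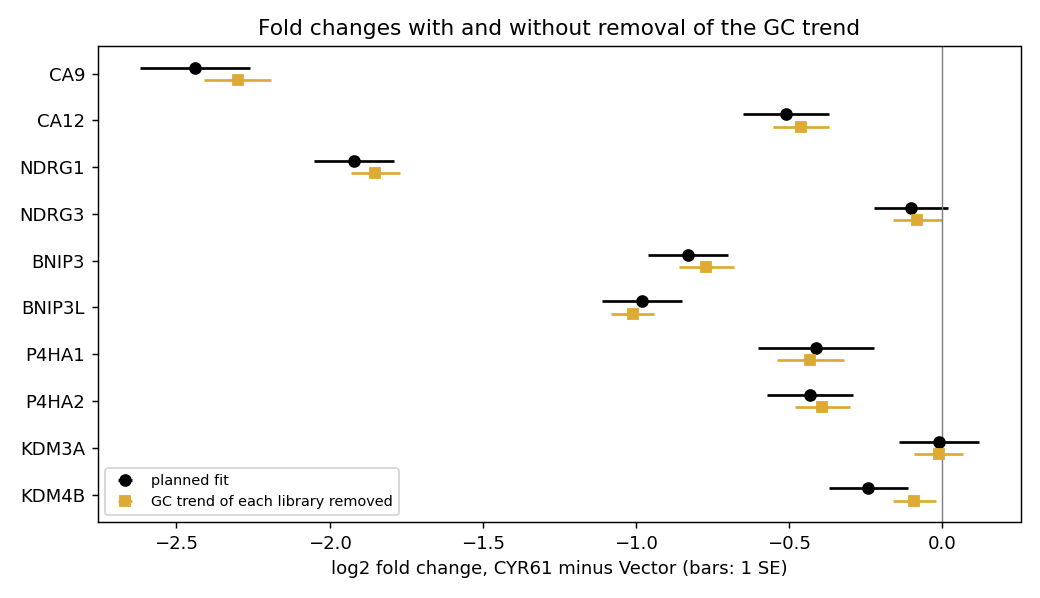
Log2 fold change, CYR61 minus Vector, of each gene with bars of 1 SE, from the planned fit (black circles) and with the GC trend of each library removed (yellow squares). CA9 moves from -2.44 to -2.30 and KDM4B from -0.24 to -0.09, while P4HA1 stays near -0.4 with a shorter bar.

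Other genes that low oxygen is known to induce were counted in a list of 26, written with earlier results of these data known. All 26 were tested, 15 fell and 0 rose, and the median log2 fold change was -0.73. The number lower was 13 without Vector 1 and 16 without any other single library. STC2, a secreted glycoprotein gene, fell from 196 ± 4.67 CPM in Vector cells to 51.6 ± 0.785 CPM (log2 fold change -1.92 with an SE of 0.12), a change of the size seen for NDRG1. ANGPTL4, an inhibitor of lipoprotein lipase, fell from 29 ± 4.98 CPM in Vector cells to 4 ± 0.6 CPM (log2 fold change -2.85 with an SE of 0.21). The glucose transporter gene SLC2A3 (-2.26) and the repressor gene BHLHE40 (-1.24) fell as well. The 11 genes not called lay between -0.69 and 0.05, so this list, like the 10 members, held both lower genes and genes that were not called.

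The HIF subunits and oxygen sensors were counted apart, as 12 genes of which 11 were tested, 2 fell and 0 rose, with a median of -0.08. That list holds EGLN2 (log2 fold change 0.04) but not the other HIF prolyl hydroxylase genes, EGLN1 and EGLN3, which are hypoxia-induced themselves and were counted in the list of 26. EGLN3, named here after its values were seen, fell from 7.96 ± 1.58 CPM in Vector cells to 1.96 ± 0.146 CPM (log2 fold change -2.02 with an SE of 0.25), a larger change than any in the list of subunits and sensors. EGLN1 was at 87.1 ± 6.77 and 75.8 ± 4.4 CPM (-0.20, SE 0.12) and was not called. EPAS1, encoding HIF-2 alpha, fell from 423 ± 7.57 CPM in Vector cells to 248 ± 6.3 CPM (log2 fold change -0.77 with an SE of 0.11). ARNT2, a partner subunit, fell from 7.22 ± 0.0816 CPM in Vector cells to 2.31 ± 0.16 CPM (log2 fold change -1.64 with an SE of 0.23).

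The counts of the related lists moved when the GC trend was removed. In that fit 21 of the other hypoxia-induced genes were lower and 0 higher, with a median of -0.75. The HIF subunits and oxygen sensors held 4 lower and 1 higher genes, and their median turned from -0.08 to 0.06. Of the mitophagy genes 8 were lower and 3 higher, of the collagen hydroxylation and folding genes 2 and 2, and of the JmjC demethylases 4 and 2. With 28.7% of all genes called in that fit, the 4 of 14 and 6 of 20 genes of the last 2 lists are near the share over all genes. The collagen chains held 6 lower and 1 higher. The medians of collagen hydroxylation and folding genes and of acid and bicarbonate transport genes turned sign, to 0.04 and 0.10.

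**Figure D5:**
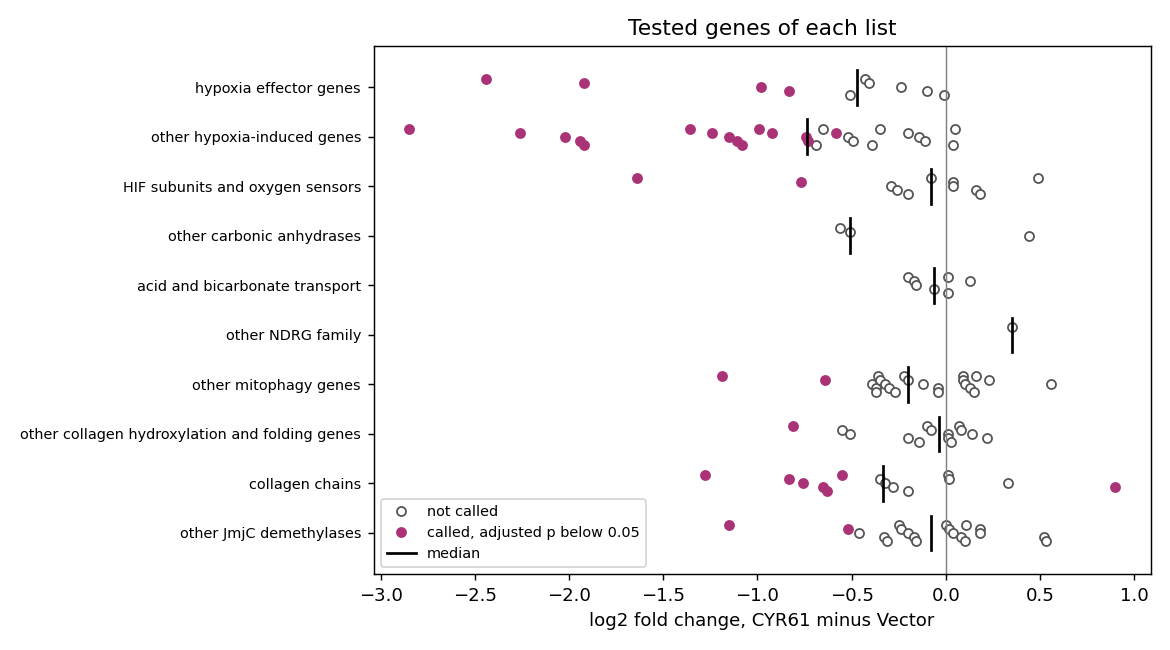
Log2 fold change, CYR61 minus Vector, of each tested gene in the 10 hypoxia effector genes and in 9 related lists, with filled points for genes called at an adjusted p below 0.05 and a bar at each median. The other hypoxia-induced genes have a median of -0.73 and the HIF subunits and oxygen sensors one of -0.08.

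Genes of at least 5 mean CPM were ordered by how closely their centred log2 CPM over the 4 libraries followed CA9, NDRG1 or BNIP3 (Euclidean distance, 10377 candidates each). Nearest to CA9 were TMEM255B (distance 0.209), GDF15 (0.263), a stress cytokine gene, and CHAC1 (0.293), encoding a glutathione-degrading enzyme. TMEM255B was at 9.61 and 7.79 CPM in the Vector libraries and 1.72 and 1.69 CPM in the CYR61 libraries. Among those nearest to NDRG1 were the sterol transporter gene ABCG1 (0.089) and the kinesin gene KIF21B (0.129). ABCG1 was at 41.7 and 35.7 CPM in the Vector libraries and 9.02 and 10.9 CPM in the CYR61 libraries. Nearest to BNIP3 were APOLD1 (0.057), DPYSL2 (0.072) and NXPH4 (0.094). DPYSL2 was at 87 and 84.9 CPM in the Vector libraries and 50.9 and 48.2 CPM in the CYR61 libraries. With 4 libraries in 2 groups, this likeness cannot be told apart from a group difference of similar size.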

How the data were processed

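Each library has a deposited table of the authors' estimated counts (20286 Ensembl genes, 11.2% to 12% of values not whole). Per the submitters' processing notes the build was hg38 and the tools were Cuffdiff 1.3.0, Cufflinks 2.2.1 and TopHat2 2.1.1. The sources used here do not give the counting program, annotation or strandedness. Counts were rounded, filtered with filterByExpr, scaled by TMM and tested on group alone with edgeR 4.0.16 (glmQLFit, R 4.3.3; Benjamini-Hochberg over 12698 genes, threshold 0.05). Each SE is the absolute log2 fold change over the square root of F. The code was tested on simulated data. Symbols matched 20228 identifiers; positions and lengths came from GENCODE 29, promoters from RefSeq. Replicates differed beyond counting noise (chi-square per degree of freedom 13.3 and 14.7). Alternatives were DESeq2 1.42.0, limma-voom (limma 3.58.1), other scalings and filters, the replicate block, removal of GC trends (spline, 5 degrees of freedom) and each library left out. Members and lists were chosen with earlier results of these data known. Beyond the members, up to 4 called genes of smallest adjusted p per list, or else the most abundant, and the 3 genes nearest to CA9, NDRG1 and BNIP3 were named. Some genes that these rules name are not reported here.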

Additional observations from a re-analysis of the deposited data

How the results depend on the processing

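CA9, NDRG1, BNIP3 and BNIP3L were called lower in all 15 alternatives, with log2 fold changes of -2.56 to -2.30, -2.03 to -1.79, -0.90 to -0.75 and -1.07 to -0.88. KDM3A ranged from -0.06 to 0.05 and NDRG3 from -0.13 to -0.06, and neither was called in any. The 4 called members became 7 with the GC trend removed and 7 with it removed together with the replicate block. The count over all genes, 811, was 1677 without a low count filter and 3638 with the GC trend removed. It ran from 481 without Vector 1 to 1331 without CYR61 2, while called members numbered 4 to 5 when 1 library was left out. Of the called genes 71.4% were lower, 76.1% with library size alone, 59.8% with DESeq2 and 40.2% with the GC trend removed.

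With the replicate block, 391 genes were called, 2201 with the GC trend removed as well, and the block changed no member's call. Replicate differences of the groups had r = -0.71 across 10378 genes. They also had opposite GC trends, with Spearman's rho of -0.73 in Vector and 0.78 in CYR61, and r was not computed without those trends. Whether the numbers pair the cultures was not tested. A block with crossed numbers, added after seeing the data, called 5624 genes and 8 members, KDM4B (-0.24, SE 0.07) among them; KDM4B was called in none of the other 14 alternatives. The causes were not tested.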
